A study of Mus musculus with 4 samples.

Results

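The genes followed here encode the core of mTOR signaling, namely the kinase Mtor, its complex partners Rptor, Rictor and Deptor, the inhibitors Tsc1 and Tsc2, and the GTPase Rheb. They were chosen by name, and their m6A peaks were taken as every peak with at least 1 base in a GENCODE M21 exon of the gene on mm10. All 7 genes were found among 21866 protein-coding genes. Their exons held 21 of the 38533 peaks of replicate 1 and 20 of the 30134 peaks of replicate 2. m6A-seq enriches RNA fragments carrying N6-methyladenosine with an antibody and sequences them next to the input RNA. The material was whole brain of C57BL/6J mice at 4 weeks of age, and the design text of the series names Prrc2a flox/flox animals. The labels name no Cre driver, so that these brains are not labelled as mutant. The series has 2 m6A immunoprecipitation (IP) samples and 2 input samples, and the 2 replicates of a single condition leave no treated group to compare.

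mTOR is a protein kinase that couples growth factors and nutrients to protein synthesis and cell growth. With Raptor (Rptor) it forms mTORC1, which phosphorylates regulators of translation, and with Rictor it forms mTORC2, which phosphorylates Akt. Deptor binds and restrains mTOR in both complexes. The Tsc1 and Tsc2 proteins form a complex that switches off Rheb, the GTPase that activates mTORC1, and loss of either causes tuberous sclerosis, a disease with brain lesions. m6A is placed mainly at adenosines within a GGAC core, often followed by U, which is T in the genome sequence.

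A peak does not give the methylated adenosine, but the consensus sites under it can be read from the genome. A shared interval is the stretch common to overlapping peaks of both replicates. For each gene with a shared interval, a site in its strongest interval is shown, where strength is the smaller fold enrichment of the pair. It is the GGACT nearest to the middle of the interval, or the nearest GGAC where no GGACT is present. In Tsc1 and Rictor a GGAC lay nearer, 31 nt from the middle against 91 and 115 nt for the GGACT shown. For the second Mtor sequence listed, a GGAC lay 2 nt from the middle against 124 nt. Both Mtor intervals are shown because they tied. The sequences are mm10, on the strand of the gene, with the motif in capitals, GGACT where present and otherwise the GGAC core.
Mtor, 3′ UTR, chr4:148557499-148557527, plus strand: tatttgcagcagGGACTcagaacataaat
Mtor, 3′ UTR, chr4:148556936-148556964, plus strand: ggacagacagttGGACTtgttaaatattt
Rptor, 3′ UTR, chr11:119899318-119899346, plus strand: tgagagttgaaaGGACTgacaggacacgg
Rictor, CDS, chr15:6786983-6787011, plus strand: agctatggacacGGACTgtggaagtctga
Tsc1, CDS, chr2:28687035-28687063, plus strand: agaactgggcaaGGACTcgggcacagaaa
Rheb, CDS, chr5:24807606-24807634, minus strand: tggaaataagaaGGACctgcatatggaaa
Deptor, 5′ UTR, chr15:55112447-55112475, plus strand: gcgcacccgccgGGACagcaaaggcagag

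All of the genes but Tsc2 carried m6A peaks in both replicates. The peaks of both replicates overlapped in each of them, so that 6 of 7 had a shared interval, beside 45.5% of all protein-coding genes. The 45.5% covers every annotated gene whatever its expression, and the 7 genes were chosen with earlier results of these data known. An excess over other genes is therefore not shown. The lists hold no expression values, so a gene without a peak cannot be told apart from a gene with little RNA. Tsc1 had 6 shared intervals, Rptor and Rheb had 3 each, Mtor and Rictor had 2 each, and Deptor had 1. Among genes with a shared interval the median was 2, and 5.53% had as many as Tsc1 or more. The Tsc1 count rests in large part on weak pairs. With a fold enrichment of 2 or more required in each list, Tsc1 kept 2 shared peaks, as many as Rptor and Rictor, while Rheb and Deptor kept 1 and Mtor none. Relative to mRNA length, Rheb came first with 1.68 shared intervals per kb, followed by Tsc1 with 0.779, Rptor with 0.455, Mtor with 0.234, Rictor with 0.215 and Deptor with 0.117. The order at the top is not firm, because most bases of 2 Rheb intervals lay outside exons. With peak midpoints required in an exon, Tsc1 had 0.649 shared peaks per kb and Rheb 0.561. With the minimum fold enrichment of 2, Rheb had 0.561, Rptor 0.303 and Tsc1 0.260. Mtor and Rictor, with the same number of intervals on mRNAs of 8564 and 9312 nt, cannot be ordered by such counts. The 2 Mtor intervals lay under 1 replicate 2 peak. With an overlap of at least 50% of both peaks required, Mtor kept 1 shared peak and Rictor 2.

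**Figure D1:**
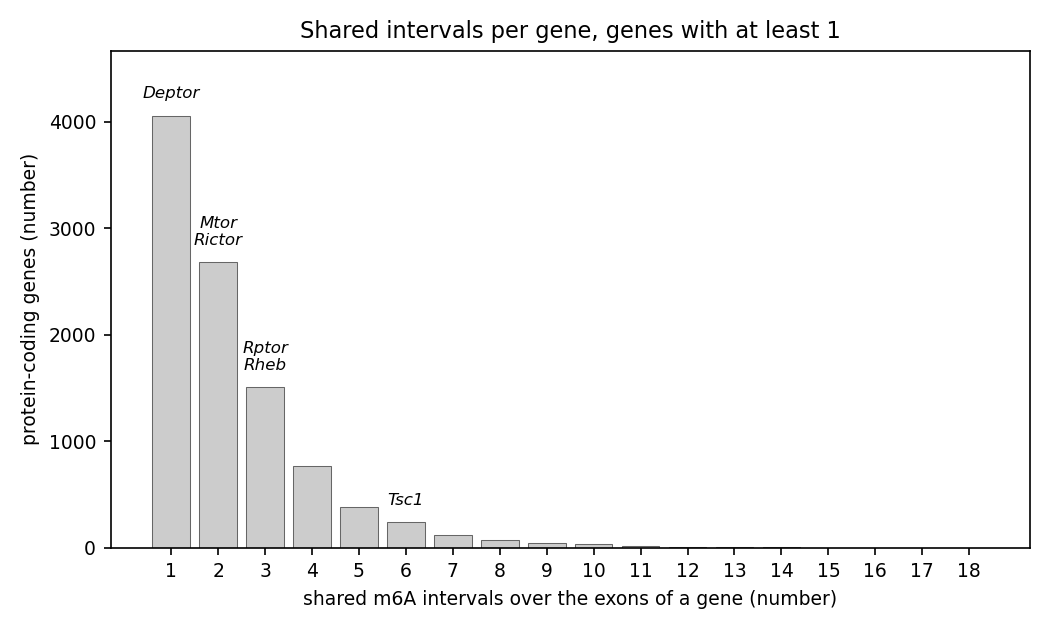
Number of protein-coding genes (vertical axis) by the number of shared m6A intervals over their exons (horizontal axis), for genes with at least 1. Tsc1, with 6 intervals, lies in the thin upper range, while Deptor, Mtor, Rictor, Rptor and Rheb lie at 1 to 3, where most genes are.

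Replicate 2 had a peak over 17 of the 21 replicate 1 peaks (81.0%, 95% Wilson interval 60.0 to 92.3), beside 67.8% of all exonic replicate 1 peaks. Of the 20 replicate 2 peaks, 16 were shared (80.0%, 58.4 to 91.9), beside 76.8% of all exonic replicate 2 peaks. Both intervals contain the series value, and peaks of a single gene are not independent, so no difference from other genes is shown. Each replicate had 4 peaks of its own. No peak within the spans of these genes lay wholly outside their exons, although Rptor alone spans 296.7 kb. In the spans of all protein-coding genes 10.3% of replicate 1 peaks and 2.45% of replicate 2 peaks touched no exon.

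**Figure D2:**
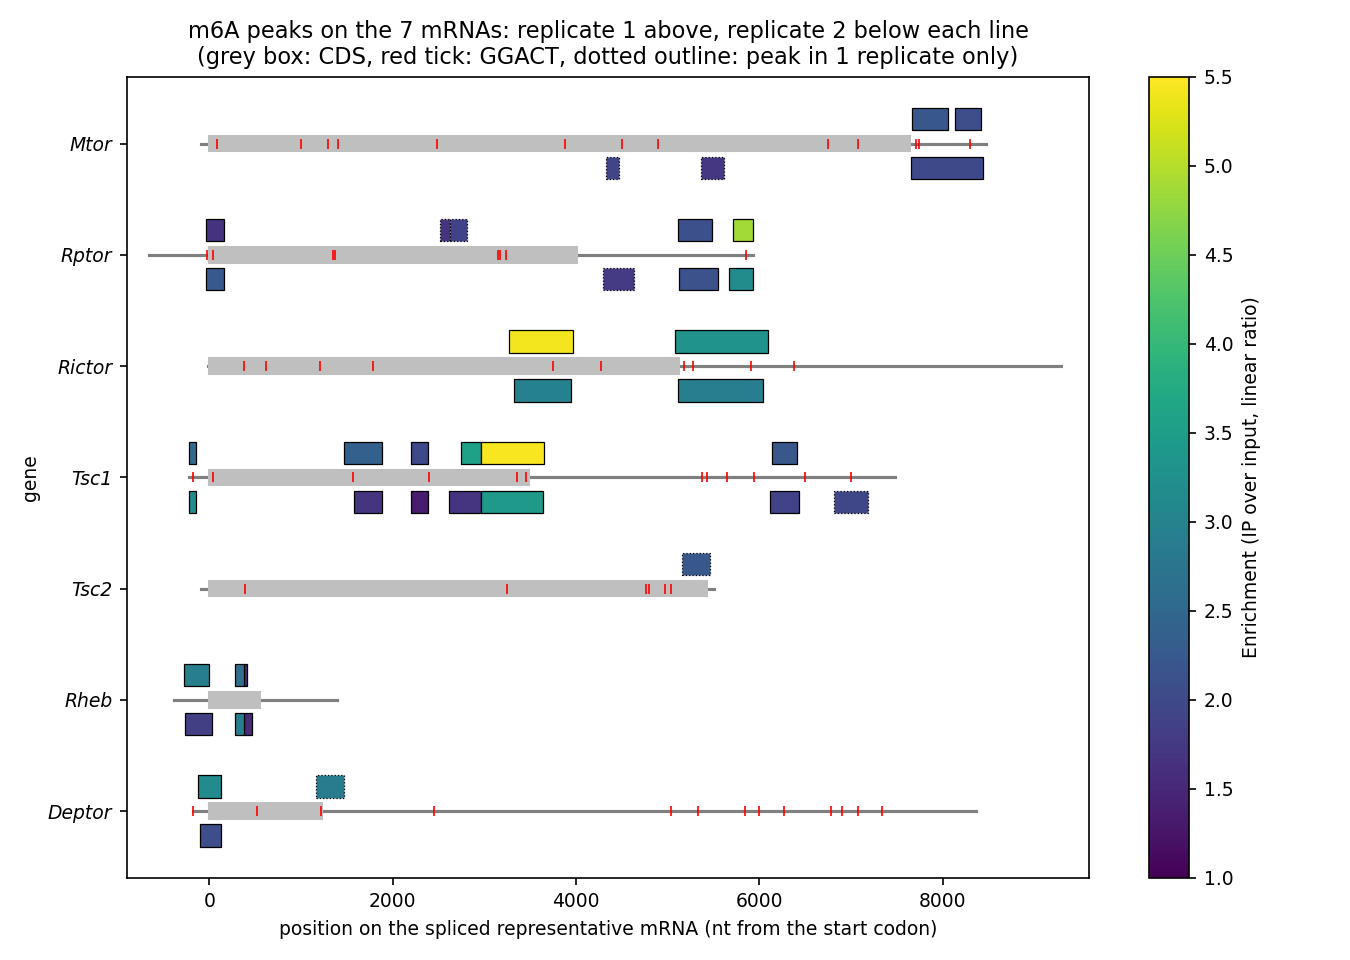
Peaks on the spliced representative mRNA of each gene, in nt from the start codon, with replicate 1 above and replicate 2 below the line and color for fold enrichment of IP over input. Grey boxes are CDS, red ticks are GGACT, and dotted outlines mark peaks of a single replicate. The brightest peaks, 4.87 to 5.46 in replicate 1, lie near the 3′ end of Rptor, in CDS of Rictor and at the end of the CDS of Tsc1.

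Fold enrichment, the ratio of IP over input that the peak caller gave, was moderate in most of these peaks. It ranged from 1.63 to 5.46 in replicate 1, with a median of 2.36 against 2.71 for all exonic peaks, and from 1.37 to 3.42 in replicate 2, with a median of 1.98 against 2.17. The 3 highest in replicate 1 were 1 each in Tsc1 (5.46), Rictor (5.43) and Rptor (4.87). In replicate 2 they had 3.42, 2.97 and 3.16, and the peak at the 5′ end of Tsc1 (3.15) came before that of Rictor.

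Tsc1, which encodes hamartin (chromosome 2, 28641228 to 28691167, plus strand, 23 exons), had the most shared peaks, a lead not kept at a minimum fold enrichment of 2. Its strongest peak began in the last intron and covered, in exon 23, the end of the CDS with the stop codon and up to 170 nt of 3′ UTR. Replicate 1 placed it at 28686497 to 28687343 with a fold enrichment of 5.46, stronger than 93.8% of exonic peaks in that replicate. In replicate 2 it ran from 28686588 to 28687328 with 3.42, stronger than 89.9%. The codons under it were those of residues 989 to 1161, the last of the protein. This interval held 2 GGACT sites, in codons 1121 and 1152.

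Upstream of it, a weaker Tsc1 peak covered exons 21 and 22, with 3.58 in replicate 1 (28685850 to 28686278) and 1.69 in replicate 2 (28685711 to 28686225). This was the largest difference between replicates among the 7 genes, 2.11-fold. On the spliced mRNA it ended at base 3188 and the strongest peak began at base 3189 in both replicates, so they adjoin once the intron is removed. Peaks were called on the genome, and whether both belong to 1 stretch of mRNA was not tested.

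Exon 15 of Tsc1 is its longest internal exon, with 559 nt, and it held a peak of 2.36 (28676042 to 28676458) in replicate 1 and 1.70 (28676148 to 28676458) in replicate 2. Exon 18 had the weakest pair of all 7 genes, with 1.99 (28679997 to 28680205) and 1.37 (28680023 to 28680222). In the long 3′ UTR a peak more than 2.6 kb after the stop codon had 2.22 (28689829 to 28690096) and 1.89 (28689809 to 28690118). A further 3′ UTR peak was called in replicate 2 only (28690507 to 28690877, 1.96). The pair at the 5′ end of Tsc1 began at 28641120 in both replicates and ended at 28641467 (2.57) and 28641479 (3.15). It began in front of the annotated gene, and only 92 of its 348 bases in replicate 1 lay in Tsc1 exons.

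Tsc2, which encodes tuberin, the partner that carries the GTPase-activating activity (chromosome 17, 24595816 to 24632630, minus strand, 42 exons), differed most from Tsc1. It had 1 peak in replicate 1 and none in replicate 2. The peak (24596567 to 24597054, 2.22) touched exons 40 to 42 and covered the stop codon and the first 38 bases of the 3′ UTR. It had 308 of its 488 bases in the representative transcript. It was stronger than 32.3% of exonic peaks in replicate 1, and the nearest replicate 2 peak was 1062 nt away. The annotated end of Pkd1, a gene of the opposite strand, lay 58 nt from it, and the lists give no strand. The peak held 1 GGACT, 14 nt from its midpoint, in exon sequence of another Tsc2 transcript. None of the 6 GGACT sites of the representative mRNA lay in it. The partners in the complex thus had 6 shared intervals in Tsc1 and 0 in Tsc2, or 2 and 0 shared peaks at a fold enrichment of at least 2.

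Rheb (chromosome 5, 24802823 to 24842624, minus strand, 8 exons), the GTPase controlled by both, has the shortest mRNA, with 1784 nt, and no GGACT. It had 3 peaks per replicate, all of them shared. In the 5′ UTR in exon 1 the fold enrichment was 2.92 in replicate 1 (24842243 to 24842511) and 1.84 in replicate 2 (24842207 to 24842508), where the peak reached over the start codon. A second pair had the same edges in both replicates, 24807453 to 24807947, with 2.62 and 2.90. Only 105 of its 495 bases were exonic, in exons 5 and 6, and the other 390 were intronic in every annotated transcript. The third pair had 1.63 (24807048 to 24807247) and 1.56 (24806881 to 24807237). It covered part of exon 7 in replicate 1 and all 82 nt of that exon in replicate 2. This pair also lay mostly outside exons, with 167 of 200 bases in replicate 1. When a peak had to have its midpoint in an exon, 1 shared Rheb peak was left instead of 3. On the spliced mRNA the second pair ended at base 768 and the third began at base 769.

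Mtor (chromosome 4, 148448611 to 148557683, plus strand, 58 exons), the kinase itself, was marked in both replicates only in its last exon. Replicate 1 had peaks at 148556877 to 148557272 (2.21) and 148557351 to 148557631 (2.06). Replicate 2 had a single wider peak over both, at 148556869 to 148557653 (2.00). It began 9 nt after the stop codon and ran through most of the 823 nt of the 3′ UTR. None of these was strong, since 32.3%, 25.9% and 40.8% of exonic peaks in the same replicate were weaker. The replicate 2 value, just under 2 before rounding, also means that Mtor had no shared peak when a fold enrichment of at least 2 was required. With midpoints required to lie within 100 bp, the single wide peak matched neither replicate 1 peak.

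In the CDS of Mtor, which makes up 7650 of the 8564 nt, only replicate 2 had peaks. They lay in exon 30 (148514766 to 148515084, 1.90) and exon 39 (148536511 to 148536759, 1.70), below the median of that replicate. The CDS holds 10 of the 13 GGACT sites of the Mtor mRNA, and none of those 10 was under a shared interval, whereas all 3 in the 3′ UTR were.

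Rptor encodes Raptor, the subunit that presents substrates to mTORC1 (chromosome 11, 119602905 to 119899576, plus strand, 34 exons). Its shared peaks lay at both ends of the mRNA. The strongest was at the 3′ end, at 119899184 to 119899529 in replicate 1 (4.87, stronger than 89.4% of exonic peaks) and 119899146 to 119899489 in replicate 2 (3.16, stronger than 85.5%). It reached past the end of the representative transcript into exon sequence of another Rptor transcript, and a GGACT lay 4 nt from the middle of the shared interval. A weaker 3′ UTR pair about 1.1 kb after the stop codon differed little between replicates. It had 2.14 in replicate 2 (119898598 to 119899019), and the log2 ratio of replicate 1 (119898591 to 119898958) over replicate 2 was -0.02.

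The Rptor peak over the start codon was called with the same edges in both replicates, 119603772 to 119603971, with 1.66 and 2.23. Its 200 nt are the shortest length present in either list. It held 2 GGACT sites, 24 nt before the start codon and in codon 12. Replicate 1 alone had peaks over exon 22 (119871366 to 119871715, 1.68) and exon 23 (119872200 to 119872510, 1.88). These 2 exons are neighbors, and the peaks meet at bases 3285 and 3286 of the spliced mRNA. Replicate 2 alone had a 3′ UTR peak at 119897771 to 119898110 (1.78). All 3 were weaker than the median exonic peak of their replicate.

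Rictor, the defining subunit of mTORC2 (chromosome 15, 6708379 to 6800401, plus strand, 38 exons), had 2 peaks per replicate, both broad and both shared. The first lay wholly within exon 31, the longest internal exon with 1006 nt. It had 5.43 in replicate 1 (6786522 to 6787216, stronger than 93.6% of exonic peaks) and 2.97 in replicate 2 (6786575 to 6787189, stronger than 81.0%). The second spanned the stop codon and the first part of the 3′ UTR, with 3.31 (6796194 to 6797208) and 2.89 (6796223 to 6797145). This interval held 3 GGACT sites, 54, 149 and 785 nt after the stop codon. The rest of the 4165 nt 3′ UTR had no peak in either replicate.

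Deptor (chromosome 15, 55112317 to 55259271, plus strand, 9 exons) has the longest 3′ UTR, with 7136 nt, and the fewest shared intervals of the genes that have any. Its shared pair covered the start codon in exon 1, with 3.14 in replicate 1 (55112372 to 55112674) and 2.07 in replicate 2 (55112391 to 55112619). An exon of Gm9920, a transcript of the opposite strand, overlaps this place, and without strand the peak cannot be assigned to Deptor alone. A peak over the stop codon (55252074 to 55252374, 2.88) was called in replicate 1 only. The nearest replicate 2 peak on the chromosome was 139455 nt away. Of 13 GGACT sites in the Deptor mRNA, 12 lay outside every peak, beside 46 of 62 over the 7 genes.

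**Figure D3:**
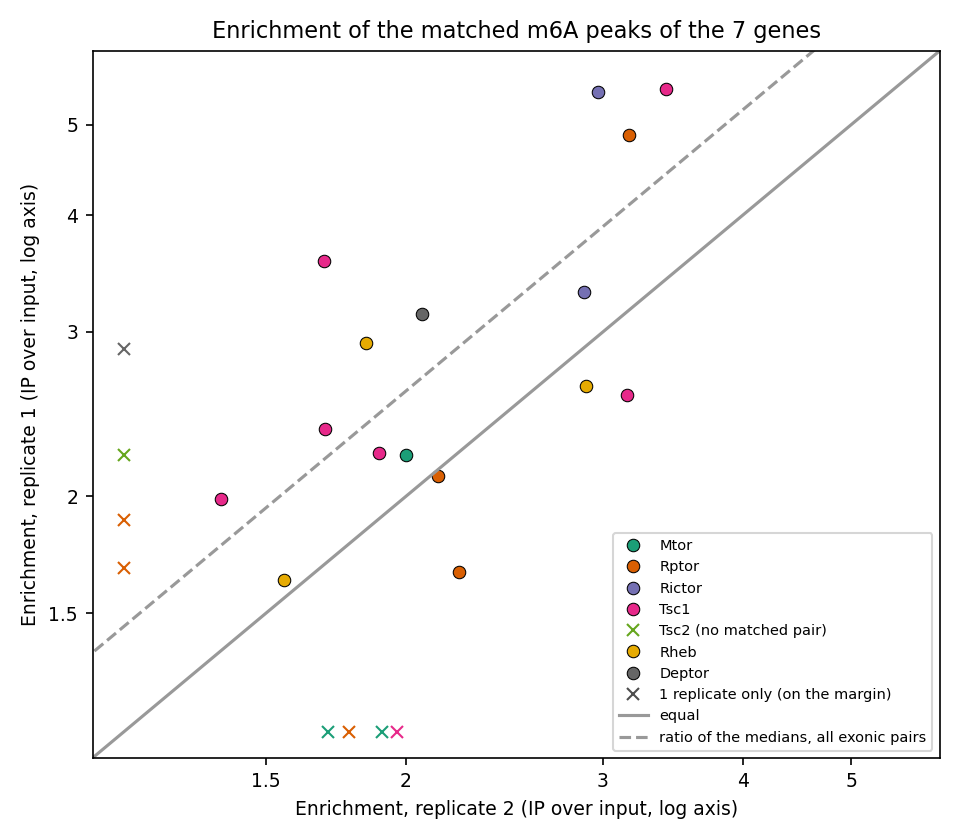
Fold enrichment of IP over input in replicate 1 (vertical) against replicate 2 (horizontal), both on log axes, for 16 matched peak pairs colored by gene, with peaks of a single replicate as crosses on the margins. The solid line marks equal values and the dashed line the ratio of the medians over all exonic pairs. The points fall on both sides of the dashed line, and 12 of 16 lie above equality.

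Mutual best overlap gave 16 matched pairs. Replicate 1 had the higher value in 12, beside 78.3% of 21001 exonic pairs. The median log2 ratio of replicate 1 over replicate 2 was 0.36 (mean 0.33 ± 0.43, SD over pairs, n = 16), and over all exonic pairs it was 0.37. The shift of these genes was therefore close to that of all exonic pairs. Divided by the median of all exonic pairs of its replicate, the median ratio changed sign to -0.019, a value smaller than the SD. The 4 pairs higher in replicate 2 were the Rptor start codon pair, the weaker Rptor 3′ UTR pair, the 5′ end of Tsc1, and exons 5 and 6 of Rheb. The 2 pairs with identical edges were among them. Identical edges occurred in 1.94% of all exonic pairs.

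Along the mRNAs, 15 of 17 shared intervals had their midpoint in an exon of the representative transcript, the one with the longest CDS. Of these, 7 lay in CDS, 6 in 3′ UTRs and 2 in 5′ UTRs. In the series 62.1% of placed intervals lay in CDS, 28.8% in 3′ UTRs and 9.11% in 5′ UTRs. No midpoint lay within 200 nt of a stop codon, beside 22.8% of placed intervals in the series. The nearest were 213 nt before the stop codon in Tsc1 and 216 nt after it in Mtor. This depends on the use of midpoints, since the intervals of Tsc1 and Rictor covered the stop codon itself. By any base within 200 nt, 5 of 17 intervals qualified, beside 34.1% in the series, and 2 of these 5 were those of the short CDS of Rheb.

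The exons concerned were few. Of 212 exons of the representative transcripts, 16 were touched by a shared interval, and they comprised 4 of 7 first exons, 4 of 7 last exons and 8 of 198 internal exons. The exons of all genes were not counted in this way, so no contrast with other genes is shown. Those 8 internal exons, from Tsc1, Rheb and Rictor, had a median length of 172.5 nt, against 118 nt for the other internal exons. The Rheb exons among them were shorter than that, with 57, 48 and 82 nt, and their peaks lay mostly outside exons. Whether exon length matters was not tested. The longest internal exon carried a shared interval in Rictor and Tsc1. In Mtor (276 nt), Rptor (192 nt), Tsc2 (491 nt), Rheb (83 nt) and Deptor (186 nt) it had no peak in either replicate.

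A GGACT lay in 8 of 17 shared intervals, beside 42.6% of the shared intervals of single genes, and GGAC in 15, beside 81.4%. Motifs were searched on the sense strand of the genomic interval. The intervals held 2.16 GGACT per kb, and all intervals 1.52 per kb. Counted on the mRNAs, the 7 genes had 62 GGACT sites, of which 13 lay in a shared interval, 3 under a peak of a single replicate and 46 outside all peaks. This count was not made over the mRNAs of all genes, so whether it is usual is not known. The 2 intervals without even GGAC were both in Rheb.

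The surrounding pathway was examined with 62 further genes in 6 lists, of which 45 had a shared interval, 8 a peak in a single replicate and 9 no exonic peak. That is 72.6%, against the 45.5% of all protein-coding genes given above. The 45.5% covers every annotated gene whatever its expression, and the lists were chosen with earlier results of these data known. An enrichment of the pathway is therefore not shown. Among other subunits and assembly factors of both complexes 7 of 8 had a shared interval. The highest were Prr5l, an mTORC2 subunit, with 10.8 in replicate 1 and 4.11 in replicate 2, and the assembly factors Tti2 (3.70 and 3.50) and Tti1 (3.83 and 3.05). The Prr5l midpoint lay in the 3′ UTR, 15 nt past the start of the stop codon. Neither Tbc1d7, the remaining subunit of the Tsc complex, nor Rhebl1, the paralog of Rheb, had a peak.

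Of the Rag GTPases, Ragulator and their regulators, which bring mTORC1 to the lysosome, 12 of 13 had a shared interval. The highest values were those of Fnip2 (7.89 and 3.71), its partner Flcn (4.13 and 3.23) and the amino acid transporter Slc38a9 (7.83 and 3.02), all with midpoints in 3′ UTRs. The GATOR and KICSTOR complexes with the amino acid sensors had a lower share than that, 8 of 16, near the 45.5% of all protein-coding genes. The sensor genes Sesn2 (7.05 and 5.12) and Sesn1 (4.26 and 5.13) and the GATOR gene Wdr59 (4.61 and 4.81) led this list. Nprl2, Seh1l, Sec13, Kptn and Castor1 had no peak.

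Upstream kinases and stress inputs had 7 of 9. Stk11, which encodes the kinase Lkb1, had 6.61 and 4.62, with the midpoint in its 5′ UTR. The stress-induced inhibitors Ddit4l (3.21 and 3.45) and Ddit4 (4.35 and 3.06) followed, and Prkaa2 had no peak. Of the targets of the complexes 11 of 14 had a shared interval, led by the translation repressor Eif4ebp1 (4.06 and 3.42), the adaptor Grb10 (4.14 and 2.91) and the lysosomal transcription factor Tfeb (3.99 and 2.90). Sgk1, a kinase activated by mTORC2, had none. In number of shared intervals Larp1 with 8 and Eif4b with 7, both of them regulators of translation and both singled out after the values were seen, exceeded Tsc1. These counts have no minimum fold enrichment. At a minimum of 2, Tsc1 kept 2 shared peaks, and no such count is given for Larp1 and Eif4b.

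**Figure D4:**
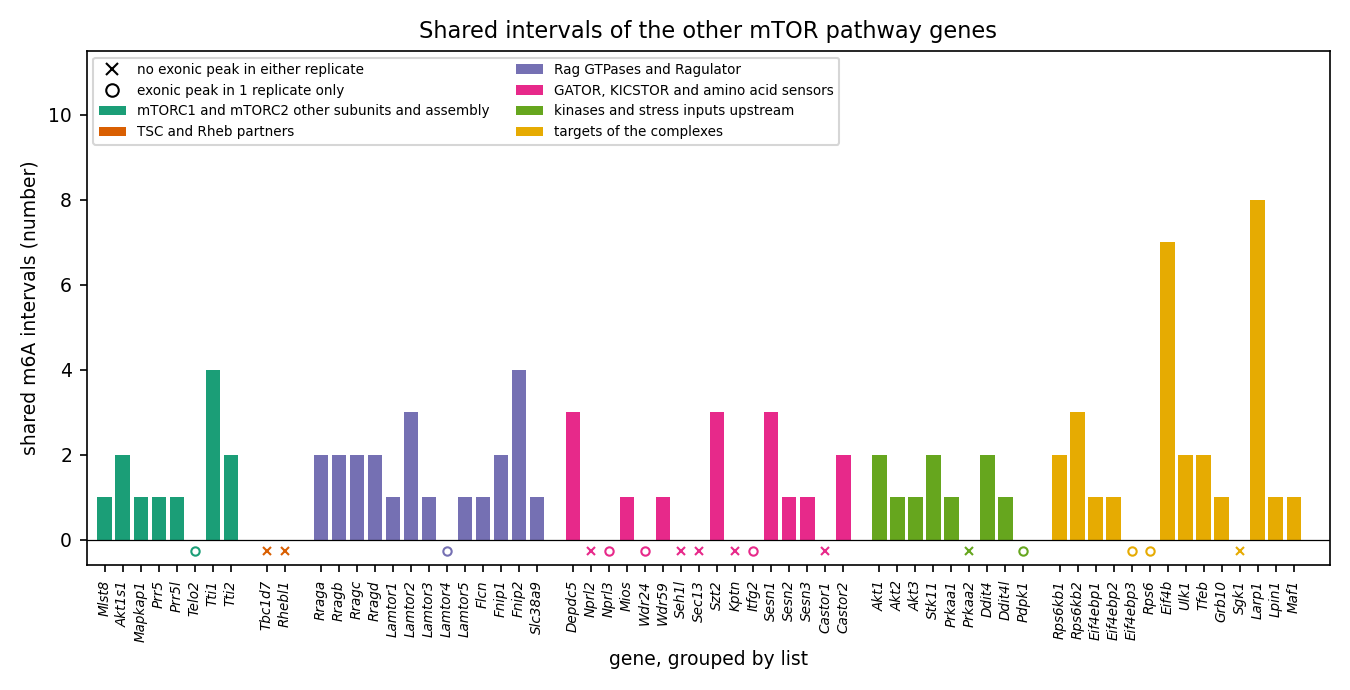
Number of shared m6A intervals (bars, starting at 0) in 62 genes of the wider mTOR pathway, grouped and colored by list, with open circles for genes with a peak in a single replicate and crosses for genes without any. Larp1 (8) and Eif4b (7) stand highest, and both genes of the list of Tsc and Rheb partners are crosses.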

How the data were processed

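The authors trimmed reads, aligned them to mm10 (the labels name TopHat2 2.0.9), kept unique alignments and called peaks with MACS2 for each IP replicate against its own input, keeping duplicates. The deposited Enrichment is a linear ratio of IP over input. It can be raised by duplicates or by low input coverage. The lists analysed here hold no read counts, summits, strand or p-values, so the depth behind each value is unknown. Per the labels, 2 IP and 2 input samples exist, and the inputs enter only through that ratio.

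Coordinates were read as 1-based, both ends counted. No peak ended beyond its GRCm38.p6 chromosome, and 99.0% of 21591 start codons read ATG. The representative transcript had the longest CDS. Peaks were shared with at least 1 bp of overlap, computed in Python 3.11.15 and checked against bedtools 2.31.1 and on simulated peaks. Wilson intervals (95%) cover counting error only. No test was made, since 2 lists of 1 condition allow none.

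The members and pathway lists were chosen with earlier results of these data known. Named pathway genes were the 3 with the largest lower Enrichment per list and those without a peak. Of 63 list symbols, Samtor was not found.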

Additional observations from a re-analysis of the deposited data

How the results depend on the processing

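The 10 main results were recomputed under other settings, giving 47 values, of which 37 stayed within 1.5 times or within the SD over pairs. A minimum fold enrichment of 2 in each list moved most, to 9 replicate 2 peaks, 8 shared peaks in each replicate, 3 shared intervals in CDS and 5 with GGACT. Within 100 nt around the midpoint, GGACT was present in 4 intervals. The shorter GGAC was present in 15 whole intervals. Midpoints within 400 nt of the stop codon numbered 2, and intervals with any base within 200 nt numbered 5, a setting added after the data were seen. The median log2 ratio reversed to -0.019 after division by the medians of all exonic pairs. Leaving out 1 replicate, 6 to 7 of the 7 genes and 46 to 52 of the pathway genes had a peak. A peak in 1 list is a looser rule than a shared interval. The share of all protein-coding genes that meet it is not given, so these counts show nothing particular to these genes. No paired analysis was possible because the inputs came without values of their own and no result comes from a test between groups. With 2 replicates and no read numbers, a peak missing from 1 list cannot be told apart from one just below its threshold.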
